A study of Mus musculus with 6 samples.

Results

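The 9 genes described here encode complement proteins and receptors of myeloid and stromal cells: the C1q chains C1qa, C1qb and C1qc, the central components C3 and C4b, the alternative pathway component Cfb, the anaphylatoxin receptors C3ar1 and C5ar1, and the regulator Serping1. They were taken by symbol from the 25722 genes counted in each library of mouse bone marrow mesenchymal stromal cells (BMSCs), and all 9 were found and passed the expression filter, which kept 13842 genes. Complement is a cascade of proteins that tags cells and debris for uptake and recruits inflammatory cells. In the classical pathway C1q binds immune complexes or dying cells, and the proteases attached to it split C4 and C2, which leads to the splitting of C3, while the alternative pathway splits C3 with the help of factor B. The small fragments C3a and C5a act on receptors of myeloid cells, and the C1 inhibitor encoded by Serping1 blocks the C1 proteases. Macrophages are a major source of C1q, whereas C3, factor B and the C1 inhibitor are also made by fibroblasts and other stromal cells.

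The BMSCs were adherent marrow cells from the tibia and femur of wild-type C57BL/6 mice, used before passage 3 and grown under low oxygen with fetal bovine serum and a ROCK inhibitor. In 3 control libraries the cells had received the solvent DMSO, and in 3 RA-treated libraries all-trans retinoic acid (RA), a ligand of nuclear receptors, and no cytokine is named for either group. For RA the sample labels give 1 µM and 48 h, the study's methods give 100 nM and 24 h for the sequenced cells, and the section on RNA isolation gives 6 h. The labels mention 2 biological replicates and do not say whether the 3 libraries of a group came from separate animals or cultures, so the p-values below measure the spread between these libraries, which may be technical. Controls 1 and 3 were the most alike pair within a group, with a chi-square of their counts per degree of freedom of 4.56, beside 28 to 83.1 for the other pairs, and whether they share a source is not given. The comparison asks how RA changes gene expression of BMSCs, and it is followed here for the complement genes.

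Libraries held between 14737636 and 18511905 counts, and 3 counts amounted to between 0.16 and 0.21 CPM (the count of a gene relative to the scaled total of its library). Cyp26b1, which encodes an enzyme that degrades RA, was at 4.97, 5.96 and 4.68 CPM in controls 1 to 3 and at 124, 110 and 87.1 in RA-treated 1 to 3, and it rose with a log2 fold change of 4.35 (standard error, SE, of 0.19, adjusted p = 0.00207 in edgeR). The libraries did not lie apart by treatment. A principal component analysis of the 1000 genes that varied most, with the complement genes left out, had a first axis with 57.2% of the variance, on which control 2, RA-treated 1 and RA-treated 2 lay on one side (library set 1) and control 1, control 3 and RA-treated 3 on the other (library set 2). On the second axis, with 21.7%, controls 1 to 3 lay at -4.96, -27.03 and -5.36 and RA-treated 1 to 3 at -5.37, 25.62 and 17.1. The groups thus overlapped there as well, while RA-treated libraries lay above the controls within each set. These sets come from the data and not from the labels, which give no batch, and each holds both treatments, so values within the sets are also given for the complement genes (the difference of mean log2 CPM, RA minus control). In set 1 control 2 is the only control, and in set 2 RA-treated 3 is the only RA-treated library. Each difference within a set thus rests on that library alone for its group, without replicates, and carries no test.

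The labels call the cells BM-MSCs, and their markers were checked. A list of 14 macrophage markers summed to between 15783 and 18288 CPM in the controls and between 16525 and 17341 after RA, with 13 of them above 10 CPM in every library. A list of 14 mesenchymal stromal markers summed to 2649, 4827 and 2890 CPM in controls 1 to 3 and to 3805, 2574 and 1968 in RA-treated 1 to 3, and 10 of them were above 10 CPM in every library. Of the stromal markers that define these cells by convention, Thy1 lay between 0 and 0.49 CPM and Nt5e between 0.14 and 1.12, whereas Eng lay between 33.1 and 59.8, Cd44 between 237 and 293 and Ly6a between 17.9 and 39.5. The summed neutrophil markers stayed at or under 4.52 CPM, with Ly6g, Elane and Mpo not listed, dendritic markers at or under 2.52, endothelial markers at or under 17.2, erythroid markers at or under 0.275 and lymphoid markers at or under 0.16. In edgeR's quasi-likelihood test 0 markers of any list were called after RA, beside 0.0433% of all genes tested. DESeq2 and edgeR adjusted for library set both called 2 of 12 stromal markers tested, Lepr and Ly6a, and 0 of the other lists, beside 0.983% and 1.54% of all genes tested. These markers are named after their values were seen. Lepr, a marker of perivascular stromal cells, rested on few counts in the controls, with 7, 9 and 7 in controls 1 to 3. In RA-treated 1 to 3 it had 45, 48 and 139. These amounted to 0.49, 0.479 and 0.481 CPM against 2.5, 3.04 and 9.48 (log2 fold change 3.35, adjusted p = 0.292 in edgeR, 0.000142 in DESeq2 and 0.00644 in edgeR adjusted for library set). Ly6a, which encodes Sca-1, was at 34.6, 34.1 and 39.5 CPM against 20.3, 19.8 and 17.9 (log2 fold change -0.90, with adjusted p of 0.172, 2.93e-06 and 0.0152 by the same tests). Within set 1 and set 2 Lepr differed by 2.26 and 3.98 (log2) and Ly6a by -0.76 and -1.04. Of the 12 stromal markers, 2 lay higher in all RA-treated libraries than in any control and 2 lower, beside 12.6% of all genes tested in either direction. Both macrophage and stromal transcripts were thus abundant, and in such bulk libraries fewer cells of a type and less RNA per cell cannot be told apart.

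Among the 9 genes the C1q transcripts were the most abundant. Per kilobase of the longest coding transcript, C1qb averaged 1379 CPM over the 6 libraries (975 to 1788), C1qc 1045 (680 to 1428) and C1qa 947 (732 to 1189). The receptors followed, C3ar1 at 215 CPM per kilobase (155 to 259) and C5ar1 at 101 (75.7 to 129). Serping1 averaged 33.2 (18.5 to 52.4) and C3 28.3 (23.6 to 36.2), whereas Cfb, at 2.84 (2.11 to 3.79), and C4b, at 0.354 (0.165 to 0.511), were the lowest. C1qb was above C1qc in 6 of 6 libraries although their ranges overlapped, C1qc was above C1qa in 3 of 6, and Serping1 was above C3 in 3 of 6, so the order within the last 2 pairs is not settled. The ranges of all other neighbours in this order did not overlap. For comparison, the macrophage gene Adgre1 averaged 1647 CPM per kilobase, the monocyte and macrophage receptor gene Csf1r 242, the leukocyte gene Ptprc 118, and the stromal genes Col1a1 and Pdgfrb 148 and 17.5. The 3 C1q genes, C3ar1 and C5ar1 stood at or above the 95 percentile of the tested genes in CPM, C3 at the 89.4 percentile, Serping1 at 71.1, Cfb at 31.4 and C4b at 13.9.

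**Figure D1:**
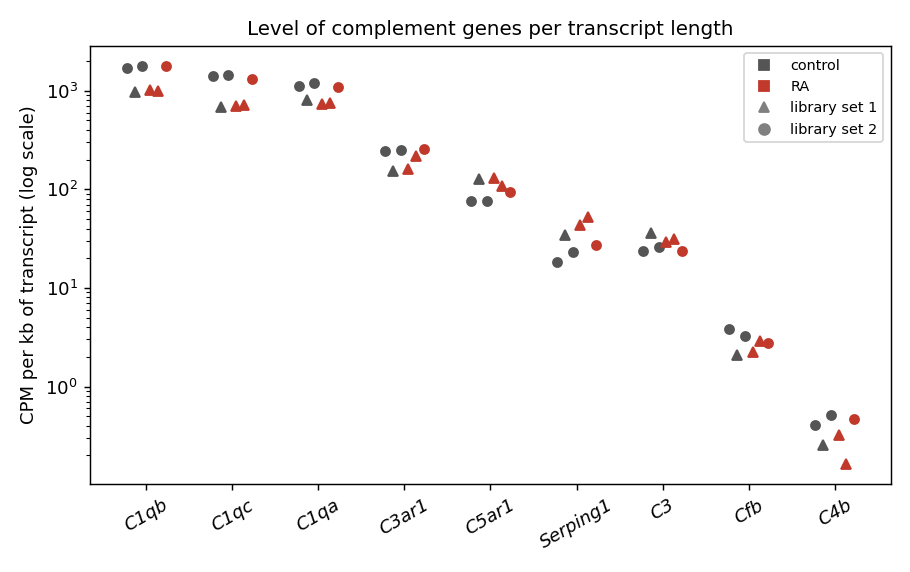
CPM per kilobase of transcript (log scale) of the 9 complement genes in each of the 6 libraries, ordered by their mean, with control libraries in grey, RA-treated libraries in red, library set 1 as triangles and set 2 as circles. The C1q genes lie between 680 and 1788, C4b between 0.165 and 0.511, and grey and red points overlap for every gene.

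RA did not detectably change any of the 9 genes. In edgeR's quasi-likelihood test with Benjamini-Hochberg adjustment over all tested genes, 0 of 9 were called at an adjusted p under 0.05 and at least 1.5-fold, beside 0.0433% of all genes tested (6 of 13842), and 0 had an unadjusted p under 0.05, beside 5.25% of all genes. Their edgeR adjusted p ran from 0.795 to 0.991. In 0 of 9 did the RA-treated libraries all lie on one side of the controls, which 12.6% of all tested genes did. With edgeR adjusted for library set 0 of 9 were called, beside 1.54% of all genes, and with DESeq2 0 of 9, beside 0.983%. The log2 fold changes lay between -0.36 and 0.70 with a median of -0.22, beside -0.018 for all tested genes, and 7 of the 9 estimates were below 0. Of these, the estimates of C3 and C3ar1 lay above 0 (0.0023 and 0.029) when the libraries were scaled by library size alone, and that of C3ar1 (0.0091) with upper-quartile scaling. Adjusted for library set, those of C1qb (0.041) and C3ar1 (0.19) lay above 0. With a library left out, C3, C3ar1 and C4b reached up to 0.18, 0.17 and 0.018. Without adjustment for library set the 95% intervals all included 0 and left room for changes in either direction, the widest being that of C4b, from -1.36 to 0.78.

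**Figure D2:**
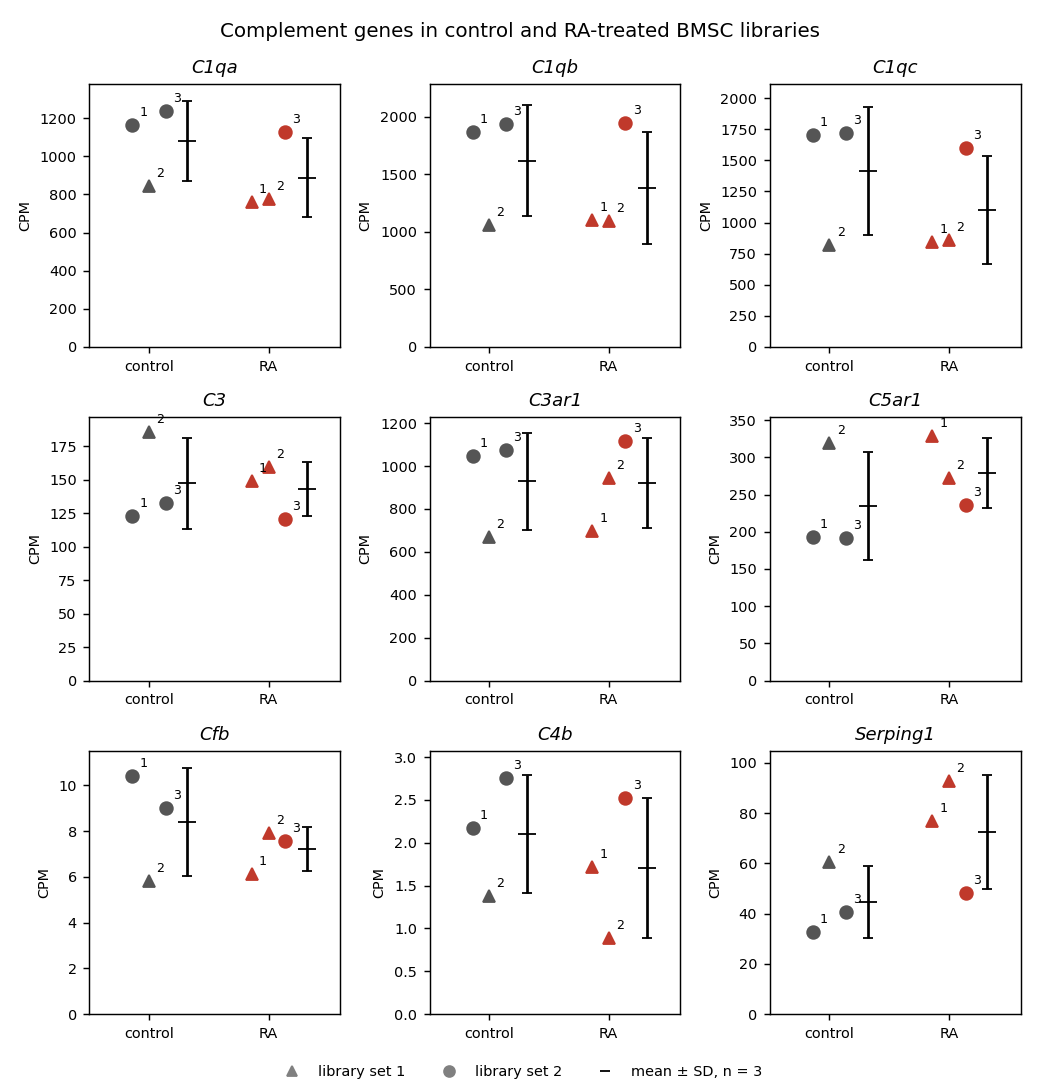
CPM of each of the 9 complement genes in control (grey) and RA-treated (red) libraries, numbered 1 to 3, with triangles for library set 1, circles for set 2 and the mean ± SD of each group (n = 3) as a bar. In every panel the groups overlap, and in 8 of 9 panels, all but Cfb, the triangles lie all above or all below the circles.

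The C1q chains are encoded side by side on the minus strand of chromosome 4 (GRCm38), C1qb at 136880129 to 136886187, C1qc at 136889804 to 136893065 and C1qa at 136895917 to 136898803. C1qa was at 1162, 844 and 1237 CPM in controls 1 to 3 and at 761, 777 and 1126 in RA-treated 1 to 3. C1qb was at 1865, 1061 and 1936 CPM in the controls and at 1103, 1092 and 1945 after RA. C1qc was at 1703, 818 and 1718 CPM in the controls and at 843, 861 and 1599 after RA. For all 3 chains control 2 lay with RA-treated 1 and 2 at the low level, and RA-treated 3 lay with controls 1 and 3 at the high level. C1qa averaged 1081 ± 208 CPM (SD, n = 3) in controls and 888 ± 206 after RA, a log2 fold change of -0.28 (SE 0.23, edgeR adjusted p = 0.803). That of C1qb was -0.23 (0.33, 95% interval -1.01 to 0.54, edgeR adjusted p = 0.861) and that of C1qc -0.36 (0.37, 95% interval -1.25 to 0.53, edgeR adjusted p = 0.826). Within the sets these differences were smaller. The RA-treated libraries of set 1 differed from its control by -0.13 (log2) for C1qa, 0.049 for C1qb and 0.058 for C1qc, and in set 2 the values were -0.091, 0.034 and -0.10. After adjustment for library set the 95% intervals narrowed to -0.29 to 0.063 for C1qa, -0.13 to 0.22 for C1qb and -0.21 to 0.17 for C1qc, beside -0.82 to 0.25 for C1qa without that adjustment, with sets that were drawn from these same libraries. Per kilobase, C1qb was between 1.21 and 1.45 times C1qc, C1qa between 0.605 and 0.832 times C1qb, and C1qa between 0.789 and 1.19 times C1qc over the 6 libraries. No window of 50 bases was shared between the transcripts of the chains.

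C3, the protein on which all complement pathways meet, is encoded on chromosome 17 at 57203970 to 57228136. It was at 123, 186 and 133 CPM in controls 1 to 3 and at 149, 160 and 121 in RA-treated 1 to 3. Its highest value came from control 2 and its lowest from RA-treated 3, and the groups overlapped. Its log2 fold change was -0.039 (SE 0.19, 95% interval -0.50 to 0.43, edgeR adjusted p = 0.966). Within both sets C3 was lower after RA, with log2 differences of -0.27 in set 1 and -0.079 in set 2, and adjusted for library set the estimate was -0.17 (0.084, edgeR adjusted p = 0.373). C3 stood apart from C1q in that its 3 highest libraries, control 2 and RA-treated 1 and 2, were the 3 in which each C1q chain was lowest.

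Cfb and C4b lie in the major histocompatibility complex region of the same chromosome, Cfb at 34856374 to 34862518 and C4b at 34728380 to 34743882. Cfb, which encodes factor B of the C3 convertase of the alternative pathway, was at 10.4, 5.8 and 9.01 CPM in controls 1 to 3 and at 6.11, 7.93 and 7.57 in RA-treated 1 to 3. The RA-treated values all lay within the range of the controls, and the log2 fold change was -0.22 (SE 0.26, 95% interval -0.84 to 0.40, edgeR adjusted p = 0.84), at 0.26 within set 1 and -0.35 within set 2. Of the 2825 exonic bases of Cfb, 2246 are shared on the same strand with the annotated readthrough gene Gm20547, which was not analysed here, so reads of both could have been counted together. C4b, the mouse gene for complement C4, rested on few reads, with 31, 26 and 40 counts in the controls and 31, 14 and 37 after RA. These amounted to 2.17, 1.38 and 2.75 CPM against 1.72, 0.888 and 2.52, with RA-treated 2 the lowest. The log2 fold change was -0.29 (0.45, edgeR adjusted p = 0.871), with -0.14 and 0.044 within set 1 and set 2, and it was -0.30 with the counts of its paralog C4a added, which shares 34.57% of the 50-base windows of C4b. C4a, the sex-limited protein gene, had 8 to 16 counts per library, at 1.12, 0.585 and 0.619 CPM in the controls and 0.667, 0.507 and 0.682 after RA (log2 fold change -0.31, SE 0.39, edgeR adjusted p = 0.845, within the sets -0.0048 and -0.25).

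Because C1qb and C3 ran in opposite directions across the library sets, the 250 bases before their RefSeq start sites are shown (GRCm38.p6, both on the minus strand, written 5′ to 3′). That of C1qb is chr4:136886201-136886450 and that of C3 is chr17:57228137-57228386. Capitals mark matches on either strand to GAGGAA, the core bound by the myeloid factor PU.1, to TTGCNNAA, a form of the C/EBP motif, and to AGGTCA, the half-site of nuclear receptors such as those for RA.
C1qb: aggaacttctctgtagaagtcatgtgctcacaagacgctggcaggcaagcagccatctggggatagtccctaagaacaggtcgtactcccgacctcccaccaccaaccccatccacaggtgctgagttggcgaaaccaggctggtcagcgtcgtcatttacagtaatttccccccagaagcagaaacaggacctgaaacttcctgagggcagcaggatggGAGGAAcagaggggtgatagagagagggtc
C3: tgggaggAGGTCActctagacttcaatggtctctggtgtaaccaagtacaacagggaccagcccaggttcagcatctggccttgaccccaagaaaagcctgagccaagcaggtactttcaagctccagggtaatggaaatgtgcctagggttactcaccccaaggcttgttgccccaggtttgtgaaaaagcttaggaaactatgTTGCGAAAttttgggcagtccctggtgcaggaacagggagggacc
C1qb held GAGGAA at positions -30 to -25 from the start site, and C3 held the C/EBP form at -45 to -38 and AGGTCA at -243 to -238. Sequences of 5 of the 9 genes were matched, and among these GAGGAA was also found before C1qc (-193 to -188, on the opposite strand) and AGGTCA also before C1qc (-174 to -169, on the opposite strand). GAGGAA occurred in 23.3% of 32851 promoter windows of this length, the C/EBP form in 9.56% and AGGTCA in 14%, so such matches are frequent. Of the other motifs searched on both strands, GGGNNTTCC, a form of the NF-κB motif (4.98% of windows), matched 0 of the 5, GAAANNGAA, an interferon response form (7.13%), matched C5ar1 at -66 to -58, and TATAAA (12.4%) matched C3ar1 at -235 to -230. No match overlapped another. C1qb and C3 were picked for display by their values in these same libraries, and the part of promoter sequence in the set differences was not tested.

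C3ar1 and C5ar1 encode the receptors for C3a and C5a, which signal through G proteins in myeloid cells. C3ar1 (chromosome 6, 122847138 to 122856161) was at 1045, 669 and 1073 CPM in controls 1 to 3 and at 698, 943 and 1117 in RA-treated 1 to 3, so that the ranges of the groups nearly coincided. The means were 929 ± 226 and 919 ± 211 CPM (SD, n = 3), a log2 fold change of -0.015 (SE 0.25, 95% interval -0.62 to 0.59, edgeR adjusted p = 0.991). Within the sets it was higher after RA, by 0.28 in set 1 and 0.077 in set 2, and adjusted for library set the estimate was 0.19 (0.13, edgeR adjusted p = 0.508). C5ar1 (chromosome 7, 16246743 to 16259540) was at 193, 319 and 192 CPM in the controls and at 329, 272 and 236 after RA. Its highest values came from RA-treated 1 and control 2, both of set 1. The log2 fold change was 0.25 (0.24, 95% interval -0.33 to 0.83, edgeR adjusted p = 0.815), and the sets gave -0.093 and 0.30. Per kilobase, C3ar1 exceeded C5ar1 by 3.2, 1.24 and 3.29 times in controls 1 to 3 and by 1.25, 2.05 and 2.79 times after RA, so the balance of both receptors varied more between libraries of a group than between the groups.

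Serping1 (chromosome 2, 84765387 to 84775444) had the largest estimate of the 9 genes. It was at 32.8, 60.6 and 40.8 CPM in controls 1 to 3 and at 76.9, 92.6 and 48.1 in RA-treated 1 to 3. RA-treated 1 and 2 lay above every control, whereas RA-treated 3 lay below control 2. The means were 44.7 ± 14.3 and 72.5 ± 22.6 CPM (SD, n = 3), a log2 fold change of 0.70 (SE 0.31, 95% interval -0.042 to 1.43) that did not pass the test (edgeR unadjusted p = 0.0608, adjusted p = 0.795). It was higher after RA within both sets, by 0.48 in set 1 and 0.39 in set 2. Adjusted for library set the estimate was 0.44 (0.12, 95% interval 0.15 to 0.72), with an unadjusted p of 0.00863 and an adjusted p of 0.167 in edgeR. Of the 12 stromal markers tested, 5 were higher in every library of set 1 than in any of set 2, beside 47.7% of all genes that divided by set in either direction, among them Pdgfrb, at 60.3, 126 and 62.4 CPM in the controls and 140, 107 and 72.7 after RA, and 0 were lower in it throughout. The other 7, Col1a1 among them, did not divide by set. The part of stromal cell content in the level of Serping1 was not tested.

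**Figure D3:**
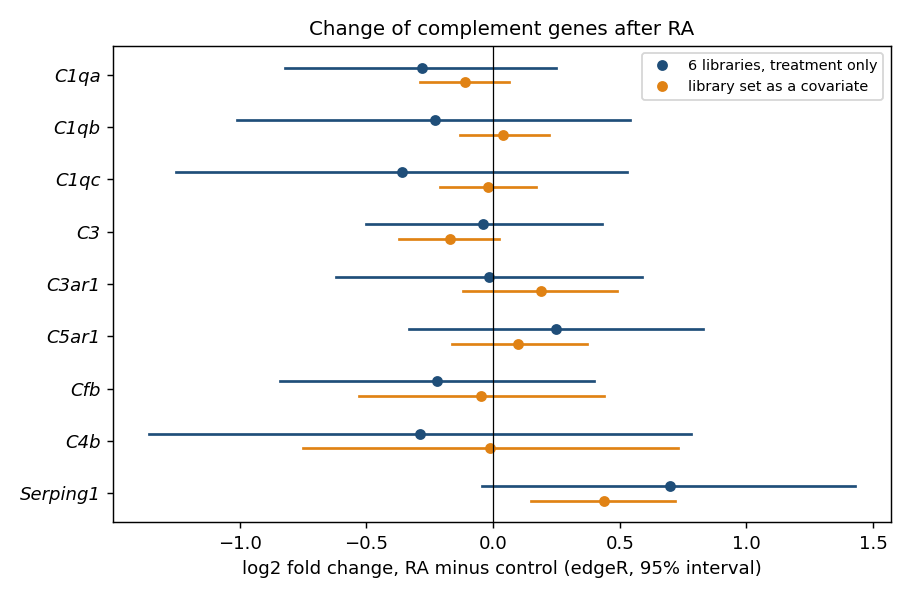
Log2 fold change after RA of the 9 complement genes with 95% intervals, from edgeR on all 6 libraries with treatment alone (blue) and adjusted for library set as a covariate (orange). With treatment alone all 9 intervals include 0, and with the covariate that of Serping1, from 0.15 to 0.72, does not, although its adjusted p was 0.167.

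Ratios within a library compare the genes without regard to library scaling. Of the 36 ratios per kilobase between pairs of the 9 genes, 2 had all RA-treated libraries on one side of the controls, which held for 13% of the ratios between pairs of all tested genes counted in every library, so both are given as descriptions. The ratio of C3 to Serping1 was 1.29, 1.06 and 1.12 in controls 1 to 3 and 0.668, 0.595 and 0.867 in RA-treated 1 to 3. The ratio of C1qa to C3ar1 was 4.6, 5.22 and 4.77 in the controls and 4.52, 3.41 and 4.17 after RA. Of 15 CPM ratios of C1qa, C1qb, C1qc, C3ar1 and C5ar1 to the macrophage and leukocyte genes Ptprc, Csf1r and Adgre1, 2 did not overlap. C1qa to Ptprc was 1.76, 1.78 and 1.73 in the controls and 1.65, 1.38 and 1.6 after RA, and C1qa to Csf1r was 1.06, 0.891 and 0.952 against 0.693, 0.782 and 0.806. C1qa to Adgre1 overlapped, at 0.199, 0.167 and 0.194 against 0.171, 0.173 and 0.196. Among all tested genes 5.77% of the ratios to Ptprc, 10.5% of those to Csf1r and 13.8% of those to Adgre1 did not overlap between the groups, so 1 ratio of 5 to each of Ptprc and Csf1r is given as a description. Ptprc itself was at 661, 474 and 715 CPM in the controls and 463, 564 and 705 after RA, Csf1r at 1100, 947 and 1298 against 1098, 994 and 1396, and Adgre1 at 5833, 5066 and 6379 against 4463, 4499 and 5752.

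The complement genes varied more with the library sets than with the treatment. In 8 of 9, all but Cfb, the libraries of one set lay all above those of the other, beside 47.7% of all tested genes. C1qa, C1qb, C1qc, C3ar1 and C4b were lower in set 1, with log2 differences of -0.57, -0.82, -0.99, -0.50 and -0.88, and C3, C5ar1 and Serping1 were higher in it, by 0.39, 0.57 and 0.91. As the sets were drawn from the libraries' own expression, these differences carry no test. Markers of cell types are given beside them. Of the 14 macrophage markers, 9 were lower in every library of set 1 than in any of set 2, with log2 differences from -1.35 (Mrc1) to -0.32 (Csf1r) and -0.48 for Ptprc, and 3 were higher, Lyz2 (0.60), Fcgr1 (0.62) and Cx3cr1 (1.21). Their sum, which holds much Lyz2, lay between 16769 and 18288 CPM in set 1 and between 15783 and 17775 in set 2. Of the 12 stromal markers tested 5 were higher in set 1 and 0 lower, a share below the 47.7% of all genes. The part of cell content in the set differences of the complement genes was not tested, and Mrc1, Lyz2, Fcgr1 and Cx3cr1 are named after their values were seen. The 3 libraries of set 1 also had the 3 largest totals, at 18511905, 17362532 and 15377032 counts, beside 14737636, 15032502 and 14961550 in set 2, and the part of depth was not tested. Col1a1, a collagen gene of stromal cells and one of the 7 stromal markers that did not divide by set, was at 732, 1648 and 779 CPM in controls 1 to 3 and at 1131, 563 and 414 in RA-treated 1 to 3, so that RA-treated 2 of set 1 lay below controls 1 and 3 of set 2. Of the 9 genes, C1qb, C3ar1 and Serping1 had higher values after RA within both sets and C1qa and C3 lower ones, while the sets disagreed in sign for C1qc, C5ar1, Cfb and C4b. Among all tested genes 30.9% were higher and 35% lower within both sets, so these counts do not set the 9 genes apart.

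Another 47 genes of the pathway were listed by role. Of these, 38 were in the files and 23 passed the filter. RA-treated libraries lay all above the controls for 5 of the 23, which is 21.7%, and all below for 0, beside 12.6% of all tested genes in either direction. By role these were Masp1, C2 and Colec12 among 7 tested genes listed under the start of the classical and lectin pathways, C6 as the single terminal component tested, Itgam among 8 receptors, and none among 6 regulators or for Cfp, the single gene of the alternative pathway that was tested. Colec12 was listed under that start as a collectin, although it encodes a scavenger receptor. The median log2 fold change of the 23 was 0.17, with 15 estimates above and 8 below 0, beside -0.018 for all tested genes. In the edgeR quasi-likelihood test 0 of the 23 were called, beside 0.0433% of all genes, and 2 had an unadjusted p under 0.05, Masp1 and Colec12, beside 5.25%, while DESeq2 and edgeR adjusted for library set both called 1, Masp1, beside 0.983% and 1.54%.

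Masp1, which encodes a protease of the lectin pathway, was at 5.67, 8.19 and 5.02 CPM in the controls and at 17.2, 15.3 and 9.76 after RA. Its log2 fold change was 1.16 (SE 0.29, 95% interval 0.46 to 1.86, adjusted p = 0.508 in edgeR and 0.0468 in DESeq2), at 0.98 and 0.86 within the sets, and after adjustment for library set its edgeR adjusted p was 0.0248. All RA-treated libraries lay above the highest control. The stromal marker sums given above overlapped between the groups, but the markers behind them moved unequally, with Lepr higher in all RA-treated libraries, Pdgfra at 6.65, 17.6 and 9.9 CPM in the controls and 23.7, 24.3 and 12.8 after RA (log2 differences of 0.45 and 0.64 within the sets), and Col1a1 lower within both sets (-1.05 and -0.87, beside -0.58 over all libraries). Of the 12 stromal markers tested 3 were higher within both sets and 8 lower, beside 30.9% and 35% of all genes tested. The part of cell content in the level of Masp1 was not tested, and Pdgfra is named after its values were seen.

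The other 4 genes differed less. Colec12, a scavenger receptor of the collectin family, was at 65.8, 67.6 and 88.9 CPM in the controls and at 98.9, 94.3 and 103 after RA (log2 fold change 0.41, SE 0.15, edgeR adjusted p = 0.795), with 0.51 and 0.43 within set 1 and set 2. Itgam, the integrin chain of complement receptor 3, was nearly constant in the controls at 1417, 1429 and 1447 CPM and stood at 1732, 1809 and 1513 after RA, a log2 fold change of 0.24 (0.13, edgeR adjusted p = 0.795), with 0.31 and 0.079 within the sets. Of its exonic bases 3450 are shared with the same-strand gene Gm49368. C2, the partner of C4 in the classical C3 convertase, was at 2.31, 2.55 and 2.27 CPM against 4.22, 3.11 and 3 (log2 fold change 0.53, within the sets 0.49 and 0.37), and it also shares exonic bases with Gm20547. C6, a part of the membrane attack complex, rested on 13 to 31 counts, at 1.19, 0.691 and 1.44 CPM against 1.72, 1.97 and 1.98 (log2 fold change 0.78, within the sets 1.27 and 0.55). Neither passed the test (edgeR adjusted p = 0.795 for both).

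**Figure D4:**
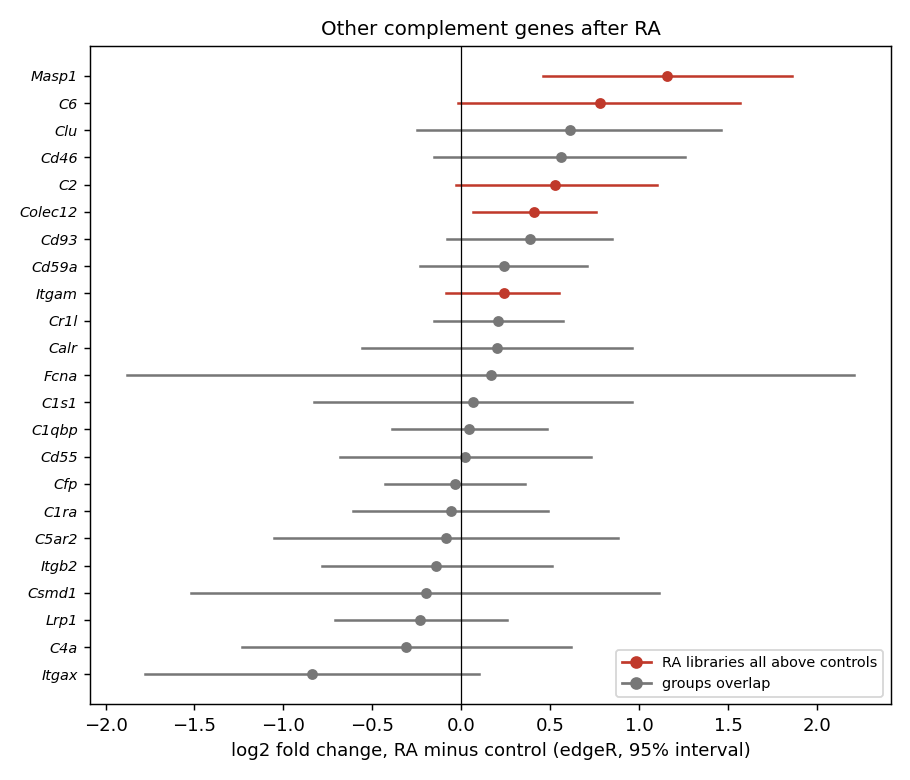
Log2 fold change after RA of the 23 other complement genes tested, with 95% intervals from edgeR over 6 libraries, in red where all RA-treated libraries lay above all controls. The intervals of Masp1 (0.46 to 1.86) and Colec12 (0.066 to 0.76) lie above 0.

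**Figure D5:**
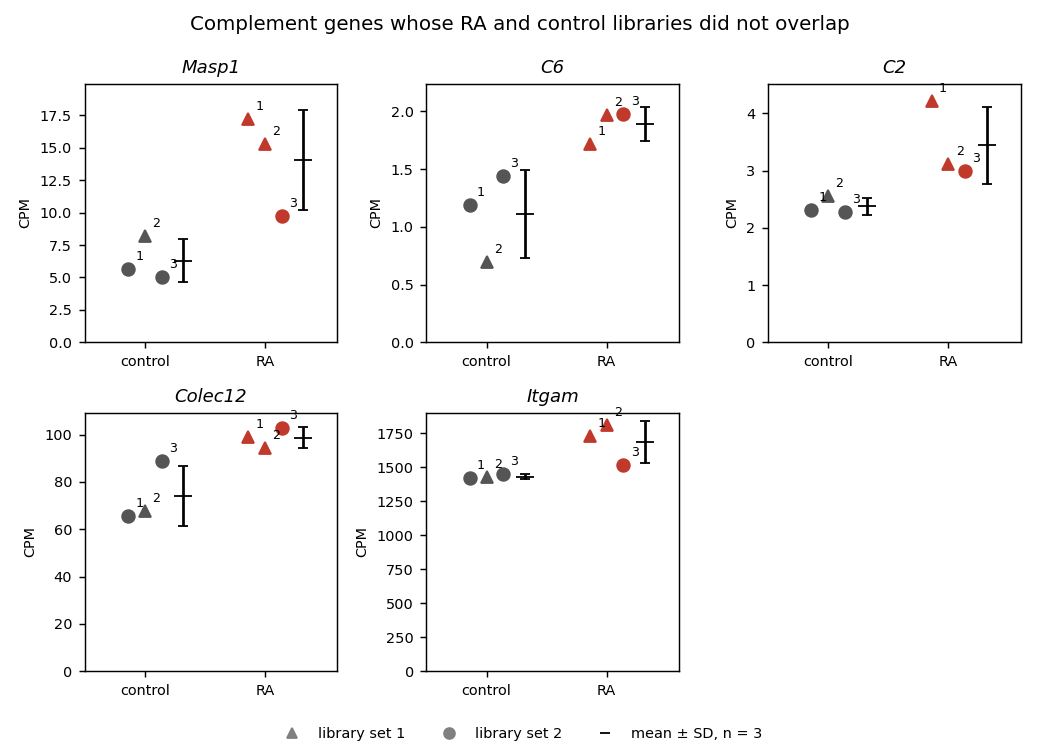
CPM of Masp1, C6, C2, Colec12 and Itgam in control (grey) and RA-treated (red) libraries, numbered 1 to 3, with triangles for library set 1, circles for set 2 and the mean ± SD (n = 3) as bars. The red points lie above all grey points in each panel, with Masp1 between 9.76 and 17.2 after RA and between 5.02 and 8.19 in controls.

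The genes whose profile over the 6 libraries was most like that of C1qa and of C3 were found by the root mean square difference of log2 CPM centred on each gene's mean. For C1qa they were Aldh6a1 (0.0286), Use1 (0.035) and Dnajb5 (0.036), beside a median of 0.371 over all tested genes, and C1qb (0.148), C3ar1 (0.192), Cfb (0.214) and C1qc (0.224) were the nearest of the complement genes described. Aldh6a1, for instance, was at 68.7, 47.5 and 70.8 CPM in the controls and 43.4, 43.2 and 65.5 after RA, with the same 3 libraries low as for C1qa. For C3 they were Bsg (0.0438), Dock4 (0.0472) and Card19 (0.0491), beside a median of 0.336. Of the complement genes described C5ar1 (0.2) was the nearest to C3, and Serping1 (0.401) and all the others lay above that median. Aldh6a1, Use1, Dnajb5, Bsg, Dock4 and Card19 were picked as the nearest of all tested genes, and the comparison rests on 6 libraries in 2 sets, so the likeness is given as a description.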

How the data were processed

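The authors deposited raw counts of reads per gene, not normalized, 1 table per library, and the labels gave each library's treatment and replicate number. The submitters' processing notes name Bowtie2 2.2.3 and the build mm10 without their roles, and the counting program, its use of strand and the annotation are not given in the sources used here. GENCODE M21 held 25706 of the 25722 gene identifiers and gave their GRCm38 coordinates and transcript lengths, and 24 names turned into dates were restored.

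Counts were analysed in R 4.3.3 with edgeR 4.0.16, using TMM scaling, filterByExpr (13842 genes kept) and the quasi-likelihood F test of 3 RA-treated against 3 control libraries without covariates, since the study's methods describe a gene set analysis of the sequenced libraries and name no tool or model for testing single genes in their counts. A call required a p under 0.05 after Benjamini-Hochberg adjustment and a change of at least 1.5-fold. Standard errors (SE) were the log2 fold change divided by the square root of F. CPM used TMM-scaled library sizes, and log2 CPM a prior count of 2. CPM per kilobase used the longest protein-coding transcript. Errors of counting, with 3 counts as the floor, are small beside the spread between libraries except for genes of few counts such as C4b, C4a, C6 and C2, and cover counting only, since PCR copies are not independent molecules. Controls 1 and 3 differed by a chi-square per degree of freedom of 4.56 and the other pairs within a group by 28 to 83.1, all above sampling noise. The 6 libraries therefore entered as separate samples, which does not show that they came from separate animals or cultures, and fits without control 1 or without control 3 were among the alternatives.

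Alternatives were DESeq2 1.42.0, upper-quartile or plain library-size scaling, at least 10 counts in every library or no filter, the likelihood ratio test, other thresholds, a replicate block, the library set as a covariate, C4a and C4b summed, and each library left out. Named were all 9 genes, C4a, the other complement genes called or, at most 6, with the largest change and no overlap between groups, Cyp26b1, the marker genes Ptprc, Csf1r, Adgre1, Col1a1 and Pdgfrb, and the 3 genes nearest to C1qa and to C3. Other marker genes were named outside this rule, to describe the cell types or after their values were seen. The 9 genes, the lists, these rules and the library sets were chosen with earlier results of these data known. Promoter sequences are from RefSeq (GRCm38.p6). An item of the complement list is not reported here and was left out of its counts.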

Additional observations from a re-analysis of the deposited data

How the results depend on the processing

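The 9 complement genes gave 0 calls under each alternative run, over 127 fitted values with adjusted p of at least 0.167 (edgeR or DESeq2). Of the other complement genes, 0 were called in the quasi-likelihood test, 1 (Masp1) with DESeq2, with the library set as a covariate and with an unadjusted p, and 0 when any library was left out. Over all genes the 6 calls became 136 with DESeq2, 20 with no filter, 134 with the likelihood ratio test, 213 with the library set as a covariate and 491 with an unadjusted p, and 0 to 6 when a library was left out. Deviations of same-numbered libraries from the group means correlated at -0.51, 0.343 and 0.572 across genes for replicates 1 to 3. The libraries of replicates 2 and 3 share a library set and those of replicate 1 do not. These values therefore do not show whether the replicate numbers pair the libraries. With the replicate block 4 genes and 0 of the 9 were called. Some log2 fold changes near 0 turned sign, that of C1qb to 0.041 and of C3ar1 to 0.19 with the library set as a covariate, of C3 to 0.0023 and of C3ar1 to 0.029 with library size alone, and of C3ar1 to 0.0091 with upper-quartile scaling. With a library left out, C3 ran from -0.16 to 0.18, C3ar1 from -0.19 to 0.17, C4b from -0.67 to 0.018 and C4a from -0.47 to 0.04. The other estimates for the 9 genes kept their sign, with C1qa from -0.49 to -0.16, C1qb from -0.56 to -0.07, C1qc from -0.73 to -0.18, C5ar1 from 0.12 to 0.55, Cfb from -0.42 to -0.039 and Serping1 from 0.48 to 0.99. The lowest values of the C1q chains came without RA-treated 3, and the lowest of Cfb and the highest of C5ar1 and Serping1 without control 2. C4b was above 0 without RA-treated 2. Cyp26b1 lost its call without control 1 (edgeR adjusted p = 0.0548), at a log2 fold change of 4.32 beside 4.35 with all libraries. The fits with a covariate use fewer degrees of freedom and remove the spread between sets, and otherwise the cause was not tested. Scaling moved the median of all genes from -0.018 to at most 0.025.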
